A study of Homo sapiens with 13 samples.

Results

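AMPK and mTOR are the kinases at the centre of energy sensing in human cells, and 10 genes of their pathway are described here across FK866-treated and untreated leukemia cells. The genes are PRKAA1, PRKAB1, PRKAB2 and PRKAG1, which encode AMPK subunits, MTOR and RPTOR of mTOR complex 1, TSC1 and TSC2 of the TSC complex, and the stress-induced inhibitors DDIT4 and SESN2. Members were all probes on the array that carry the name of one of these genes and are not controls, which gave 10 of the 25940 gene names on the array and 13 of its 34127 such probes. All 13 member probes passed the filter on dim signals, as did 22751 probes in all. PRKAA1, TSC1 and TSC2 had 2 probes each and the other genes 1.

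AMPK is a trimer of a catalytic alpha subunit, a scaffolding beta subunit and a nucleotide-binding gamma subunit. It becomes active when AMP and ADP rise relative to ATP and when upstream kinases phosphorylate a threonine in the activation loop of the alpha subunit. Active AMPK restrains mTOR complex 1, a driver of protein synthesis and growth, by phosphorylating TSC2 and raptor, the protein made from RPTOR. The TSC complex holds RHEB, the direct activator of mTOR complex 1, in its inactive state. REDD1 (from DDIT4) and sestrin 2 (from SESN2) inhibit mTOR complex 1 under stress or amino acid shortage. These proteins are regulated largely by phosphorylation, which an mRNA array does not measure.

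The cells were CCRF-CEM, a line from a human T cell leukemia (T-ALL), either parental (CEM PA) or a resistant population (CEM RES) selected with rising concentrations of FK866. FK866 inhibits NAMPT, which converts nicotinamide to nicotinamide mononucleotide, a precursor of NAD+. Total RNA was measured on 13 1-colour Agilent arrays: 3 of mock-treated CEM PA, 2 of CEM PA with FK866, 4 of mock-treated CEM RES and 4 of CEM RES with FK866. Exposure to FK866 was at 5 nM for 48 h in both lines. The resistant subline was selected to withstand 100 nM and, by the study's methods, was kept in medium with the drug, so mock-treated CEM RES were not drug-naive cells. CEM RES is 1 resistant subline, and the labels call the arrays of a group biological replicates.

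The probes that read coding sequence and on which the results for PRKAA1 and TSC2 turn are shown here as printed on the array, 5′ to 3′. Their positions are in the hg19 build given in the array files. The first reads PRKAA1 at chr5:40769519-40769578 on the minus strand (position 586 of NM_206907), and its capitals mark the codon of the activation loop threonine. The next reads TSC2 at chr16:2136775-2136834 on the plus strand (position 4997 of NM_000548), in the part that encodes the GTPase-activating domain, and its capitals mark the codon of the catalytic asparagine. The last reads TSC2 at chr16:2100427-2100486 on the plus strand (position 270 of NM_001077183), near the start of the coding sequence, and has no capitals.
PRKAA1 A_33_P3312212: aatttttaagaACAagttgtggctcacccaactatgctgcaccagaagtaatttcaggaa
TSC2 A_23_P66110: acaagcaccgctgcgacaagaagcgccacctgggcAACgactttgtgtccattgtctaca
TSC2 A_33_P3281686: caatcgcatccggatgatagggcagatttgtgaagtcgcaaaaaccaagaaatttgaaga
The other PRKAA1 probe, A_33_P3257187, lies at chr5:40759598-40759657, at position 4953 of the same transcript.

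Each array had 43118 spots besides its controls, of which 26457 to 33239 were well above background and 0 were saturated. All 9 T cell markers examined, among them CD3D, CD7 and LCK, were well above background on every array, as were 3 to 4 of 4 B cell, 1 of 4 myeloid and 3 to 4 of 6 epithelial markers, depending on the group. EPCAM, KRT19 and MPO did not reach this in any group. The arrays were scanned in 3 sessions, and session 3 held every CEM RES array and no CEM PA array, so line and scan session cannot be told apart. Values are log2 signals after quantile normalization. Differences are log2 differences with limma's standard error (SE), called at a Benjamini-Hochberg adjusted p under 0.05 over all 22751 probes. A second rule stated in the study's methods, an unadjusted p under 0.05 with an absolute log2 difference over 0.75, is the double threshold. It is given beside the call for FK866 against mock. Signals of different probes are not compared with each other.

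**Figure D1:**
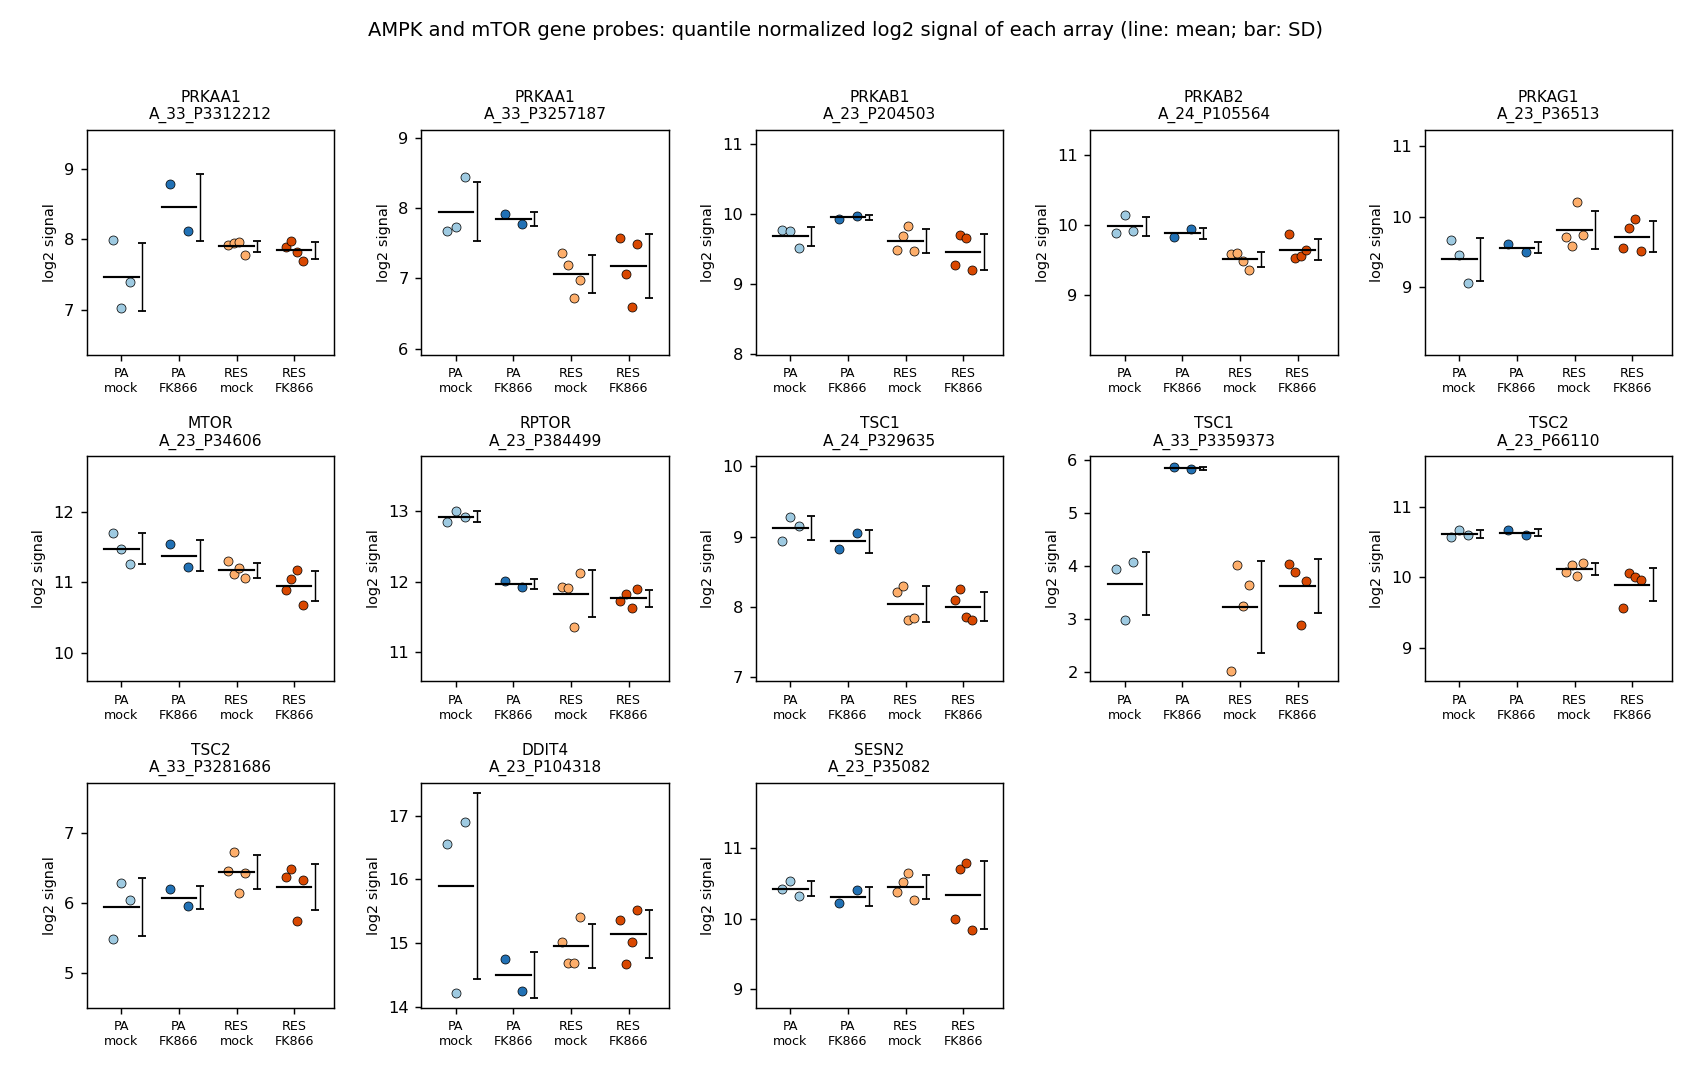
Quantile normalized log2 signal (y axis) of each of the 13 probes, with 1 point per array, in CEM PA and CEM RES with mock or FK866; the horizontal line is the group mean and the vertical bar the SD. RPTOR lay between 12.85 and 13.01 in mock-treated CEM PA and between 11.35 and 12.12 in the other groups, while DDIT4 spread from 14.22 to 16.90 in mock-treated CEM PA.

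RPTOR mRNA was lower in CEM PA with FK866 than with mock. RPTOR encodes raptor, the scaffold that brings substrates to mTOR. Its probe (A_23_P384499, chr17:78939983-78940042 on the plus strand, position 6665 of NM_020761) read 12.85, 13.01 and 12.91 in mock-treated CEM PA against 12.01 and 11.92 with FK866. The groups did not overlap, and the log2 difference was -0.96 (SE 0.21, adjusted p = 0.0399), 1.94-fold lower. It was the 1 member probe called of 13, where 1.53% of all probes were called, 1.11% as higher and 0.418% as lower. The difference was -0.84 in scan session 1 and -1.04 in session 2. Session 1 held 1 mock and 1 FK866 array of CEM PA and session 2 held 2 mock and 1 FK866, so each such value rests on 1 FK866 array.

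The size of the RPTOR difference was stable but its call was not. Over 27 alternative settings the log2 difference stayed between -1.01 and -0.89 while the adjusted p ranged from 0.00751 to 0.279, and the call was lost under 17 of them. Among these, the adjusted p was 0.117 when only the CEM PA arrays were fitted and 0.0585 in a fit of 1 probe per gene, which called 0.512% of genes. Leaving out FK866 replicate 1 or 2 of CEM PA gave 0.211 and 0.279, and leaving out mock replicate 1, 2 or 3 gave 0.0729, 0.124 and 0.0775. Without FK866 replicates 1 to 4 of CEM RES, which enter only through the shared spread, RPTOR had adjusted p of 0.0611, 0.0577, 0.0564 and 0.0534, and without CEM RES mock replicate 2 of 0.056.

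Across the member probes, 2 were higher and 2 lower past the double threshold in CEM PA with FK866, against 6.69% of all probes (3.87% higher and 2.82% lower). These 4 were RPTOR, the activation loop probe of PRKAA1, a dim TSC1 probe and DDIT4. Without FK866 replicate 1 of CEM PA, 2 member probes passed. The median log2 difference over the 13 probes was -0.10, beside -0.003 over all probes tested.

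PRKAA1, which encodes the alpha 1 catalytic subunit of AMPK, gave different readings from its 2 probes. The activation loop probe read 7.99, 7.03 and 7.39 in mock-treated CEM PA and 8.79 and 8.12 with FK866. All FK866 values lay above the mock values, the nearest pair by little, and the log2 difference of 0.99 (SE 0.26, 1.98-fold) had an adjusted p of 0.0866. PRKAA1 was called under 5 of 27 alternatives, among them replicate number as a block (0.95, adjusted p = 0.0206), scan session as a block (0.86, adjusted p = 0.0278) and the fit without mock replicate 1 (1.25, adjusted p = 0.0332). The replicate block drops mock replicate 3, which has no FK866 partner, from the difference. The difference was 0.81 in session 1 and 0.91 in session 2. The second probe, toward the transcript's 3′ end, read 7.68, 7.73 and 8.44 against 7.92 and 7.77, which overlap (-0.10, adjusted p = 0.936). The probes of PRKAA1 do not give a single answer for the gene. Averaged, they differed by 0.44 with FK866 (adjusted p = 0.399).

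TSC1 encodes hamartin, which stabilises TSC2. Its bright probe (A_24_P329635, chr9:135766811-135766870, position 8480 of NM_000368) read 8.94, 9.28 and 9.15 in mock-treated CEM PA and 8.82 and 9.05 with FK866, overlapping groups with a log2 difference of -0.19 (adjusted p = 0.765). The other TSC1 probe (A_33_P3359373, chr9:135786626-135786685), which the array design assigns to transcript ENST00000403810, was dim. It read 3.94, 2.98 and 4.07 in mock-treated CEM PA and 5.86 and 5.82 with FK866, a log2 difference of 2.18 (SE 0.52, adjusted p = 0.062). This TSC1 probe was well above background on 1 of 3 mock and 2 of 2 FK866 arrays of CEM PA, so the fold change rests partly on signals near background. Within scan sessions 1 and 2 it differed by 1.92 and 2.30. The difference was 2.08 (adjusted p = 0.00643) after scaling to the 75th percentile and 0.57 (adjusted p = 0.0145) after normexp background correction. Without CEM RES mock replicate 1 it had an adjusted p of 0.0214.

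DDIT4, the gene of the mTOR complex 1 inhibitor REDD1, spanned 2.68 log2 units among the mock-treated CEM PA arrays, more than any difference between its group means. Its probe (A_23_P104318, chr10:74035363-74035422) is printed 10 times on each array. The mean of these spots was 16.56, 14.22 and 16.90 in mock-treated CEM PA and 14.75 and 14.25 with FK866. Mock replicate 2 lay below both FK866 arrays and the other two mock arrays lay far above them, so the groups overlap. The SD over the spots of an array was 0.0292 to 0.13, far below the spread between arrays of DDIT4. The log2 difference was -1.39 (SE 0.61, adjusted p = 0.314). Without mock replicate 2 DDIT4 was called lower with FK866 (-2.23, adjusted p = 0.0177). Other settings moved the DDIT4 difference toward 0, to -0.89 without mock replicate 3 (adjusted p = 0.598) and -0.64 with array quality weights (adjusted p = 0.555). The replicate block gave the same -0.89 (adjusted p = 0.23), since mock replicate 3 has no FK866 partner and drops out of that difference. Within sessions 1 and 2 the difference was -1.81 and -1.31. The session 2 value sets the mean of mock replicates 2 (14.22) and 3 (16.90) against 1 FK866 array (14.25). Those mock arrays thus disagree on the difference, and the session 2 arrays of CEM PA were each on a different slide.

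**Figure D2:**
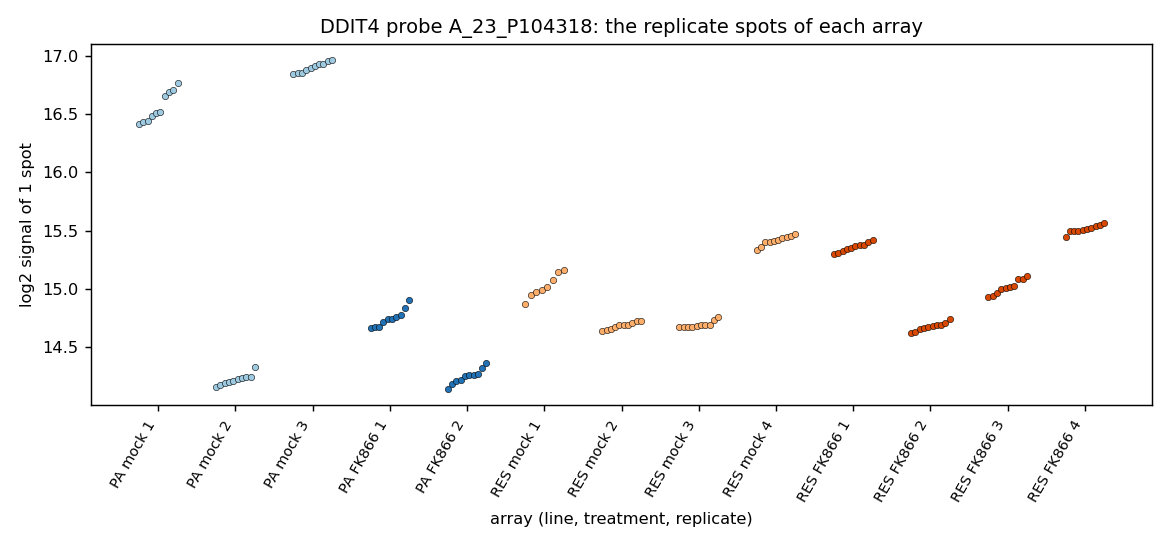
Log2 signal (y axis) of each non-outlier spot of the DDIT4 probe on each array (x axis: line, treatment and replicate), coloured by group. The spots of an array lie close together, and mock replicate 2 of CEM PA, at a mean of 14.22, stands more than 2 log2 units below the other mock arrays of that line at 16.56 and 16.90.

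The remaining members moved little with FK866 in CEM PA. SESN2, a leucine-responsive inhibitor of mTOR complex 1, read 10.42, 10.54 and 10.32 against 10.22 and 10.41 (-0.11, 95% interval -0.70 to 0.48). MTOR, the kinase itself, read 11.70, 11.48 and 11.26 against 11.54 and 11.22 (-0.10, interval -0.52 to 0.32). In both genes the groups overlap. The AMPK subunits PRKAB1, PRKAB2 and PRKAG1 differed by 0.27, -0.10 and 0.17, with adjusted p of 0.589, 0.865 and 0.832. PRKAB1 did not overlap, at 9.928 and 9.975 with FK866 against 9.515 to 9.765 with mock (interval -0.15 to 0.70). The TSC2 probes differed by 0.02 (A_23_P66110) and 0.14 (A_33_P3281686), with adjusted p of 0.986 and 0.89.

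In CEM RES, no member probe was called with FK866 and none passed the double threshold. Across all probes limma called 0% in CEM RES, 1.3% passed the double threshold, and 1171 (5.15%) had an unadjusted p under 0.05, of which 0 were members. Member log2 differences lay between -0.22 and 0.40, with 4 probes above and 9 below 0 and a median of -0.07, beside -0.02 over all probes. RPTOR read 11.92, 11.91, 11.35 and 12.12 in mock-treated CEM RES and 11.72, 11.82, 11.62 and 11.89 with FK866, which overlap (-0.07, interval -0.41 to 0.28). DDIT4 read 15.02, 14.69, 14.70 and 15.41 against 15.36, 14.68, 15.02 and 15.51 (0.19, interval -0.83 to 1.21). The DDIT4 interval was the widest of the 13 in this comparison. The activation loop probe of PRKAA1 differed by -0.06 (interval -0.49 to 0.38). Between the 2 slides of CEM RES, each with 2 arrays per treatment, the member differences ran from -0.35 to 0.78, with the highest value from the dim TSC1 probe.

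Whether the lines responded differently was tested as the difference of the responses, CEM RES minus CEM PA. No member probe was called, and 0.413% of all probes were. The unadjusted p was under 0.05 for 3 members, beside 12.1% of all probes. For RPTOR the responses differed by 0.89 (SE 0.26, adjusted p = 0.188), for the activation loop probe of PRKAA1 by -1.04 (SE 0.33, adjusted p = 0.227), and for the dim TSC1 probe by -1.78 (SE 0.66, adjusted p = 0.305). With replicates of equal number as a block the PRKAA1 probe was called (-1.01, adjusted p = 0.0407). DDIT4 differed by 1.58 (SE 0.77, adjusted p = 0.431), and was called without CEM PA mock replicate 2 (2.42, adjusted p = 0.0455).

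**Figure D3:**
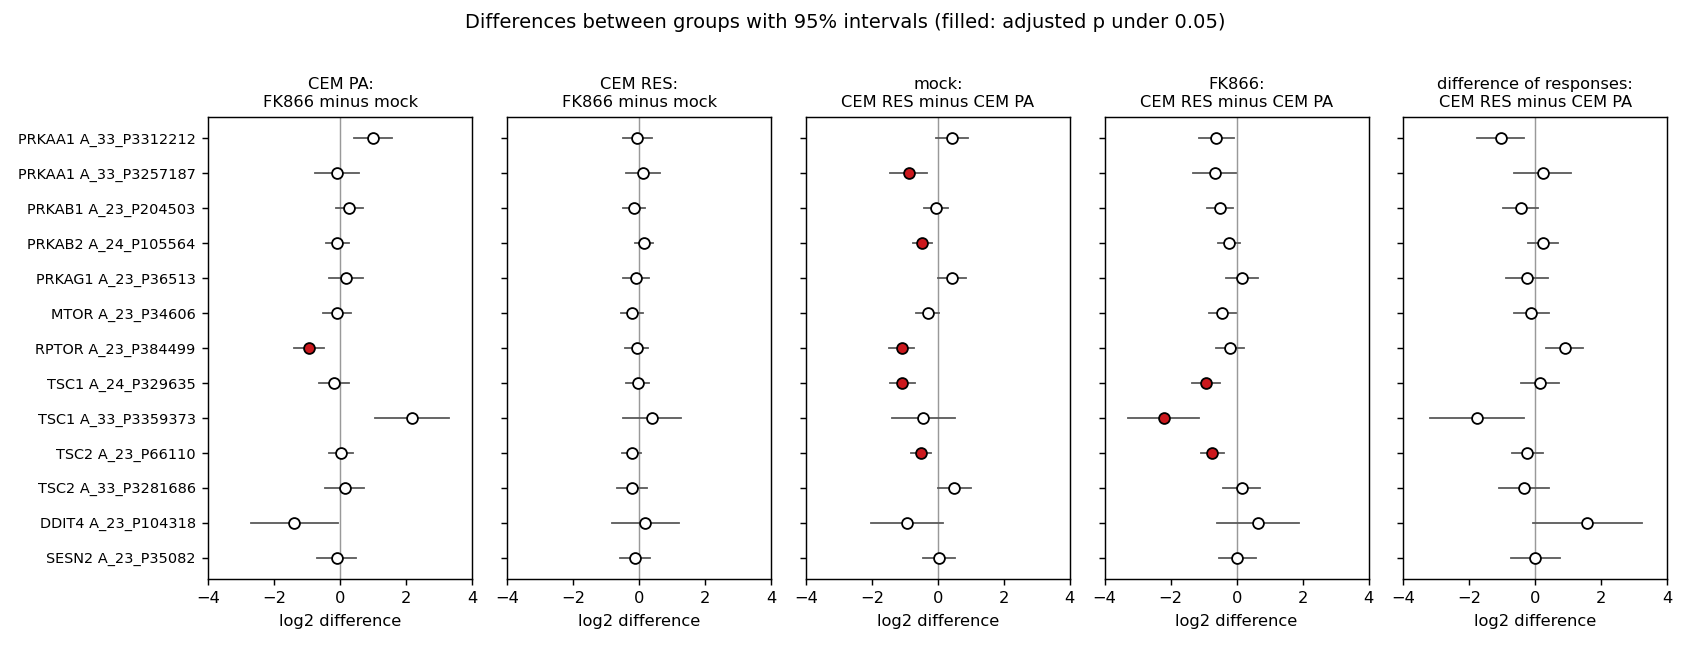
Log2 difference (x axis) with its 95% interval for each probe (y axis) in 5 comparisons, with filled points where the adjusted p is under 0.05. The filled points are 1 probe for FK866 in CEM PA, 5 for CEM RES against CEM PA under mock and 3 under FK866, and all of them lie below 0.

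Without FK866, 5 of 13 member probes, of 5 genes, fell below CEM PA in CEM RES and 0 rose above it. Among all probes 47.6% differed between the mock-treated lines, 24.9% higher and 22.7% lower, so that differences between the lines were common on the array. The median member difference was -0.44, beside 0.04 over all probes. Each value below also carries the difference in scan session between the lines.

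RPTOR was lower in CEM RES without FK866. Its values of 11.35 to 12.12 in mock-treated CEM RES lay below all 3 of mock-treated CEM PA, 12.85 to 13.01, a log2 difference of -1.09 (SE 0.17, adjusted p = 0.000326, 2.13-fold lower). Under the 27 alternatives the RPTOR difference between the lines stayed called, from -1.19 to -0.94. The mock-treated CEM RES arrays were near CEM PA with FK866, at 12.01 and 11.92. With FK866, CEM RES read 11.62 to 11.89, all below CEM PA with FK866. That difference of -0.20 was not called (95% interval -0.63 to 0.22, adjusted p = 0.444). The RPTOR difference between the mock-treated lines and the FK866 response of CEM PA share the same 3 mock-treated CEM PA arrays.

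Both member genes of the TSC complex, TSC1 and TSC2, had a probe that was lower in CEM RES. The bright TSC1 probe read 8.22, 8.30, 7.81 and 7.84 in mock-treated CEM RES, all below the CEM PA values of 8.94 to 9.28 (-1.08, SE 0.18, adjusted p = 0.000383, 2.11-fold lower). Under FK866 it read 8.09, 8.25, 7.86 and 7.81 against 8.82 and 9.05 (-0.93, SE 0.20, adjusted p = 0.00351). This TSC1 probe was called in both comparisons of the lines under each alternative that tested it by itself. The mean of the TSC1 probes was called too, but it includes the dim probe. The dim TSC1 probe read 2.02, 4.01, 3.24 and 3.64 in mock-treated CEM RES, overlapping CEM PA (-0.44, adjusted p = 0.432). Under FK866 it was lower in CEM RES (-2.21, SE 0.49, adjusted p = 0.0045), where it read 4.03, 3.88, 2.89 and 3.71 and was well above background on 4 of 4 arrays, against 2 of 4 of mock-treated CEM RES. The size of this difference depended on the background correction, and with normexp it was -0.51 (adjusted p = 0.00171). Averaged over the TSC1 probes, the FK866-treated lines differed by -1.57 (adjusted p = 0.00113).

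TSC2, the GTPase-activating subunit, gave opposite signs from its probes. The probe in the GTPase-activating domain, A_23_P66110, read 10.08, 10.18, 10.02 and 10.21 in mock-treated CEM RES and 10.57, 10.68 and 10.61 in CEM PA, with no overlap (-0.50, SE 0.14, adjusted p = 0.0118). Under FK866 this TSC2 probe read 9.56, 10.06, 10.01 and 9.97 against 10.67 and 10.61 (-0.74, SE 0.16, adjusted p = 0.00393). The probe near the start of the coding sequence, A_33_P3281686, read 6.46, 6.73, 6.15 and 6.43 in mock-treated CEM RES against 5.49, 6.29 and 6.05 (0.50, SE 0.23, adjusted p = 0.0896), with overlapping groups. It was called higher after scaling to the 75th percentile (0.80, adjusted p = 0.0138) and without CEM PA mock replicate 2 (0.67, adjusted p = 0.0484). When the TSC2 probes were averaged, the difference between the mock-treated lines was -0.002 (adjusted p = 0.994) and under FK866 -0.29 (adjusted p = 0.213).

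Of the AMPK subunits, PRKAB2 and the 3′ probe of PRKAA1 were lower in mock-treated CEM RES. PRKAB2, a scaffolding beta subunit, read 9.59, 9.61, 9.49 and 9.37 against 9.89, 10.14 and 9.92 in CEM PA, with no overlap (-0.47, SE 0.14, adjusted p = 0.0131). Without CEM PA mock replicate 2 PRKAB2 had an adjusted p of 0.0615. The 3′ probe of PRKAA1 read 7.36, 7.19, 6.73 and 6.97 against 7.68, 7.73 and 8.44, also without overlap (-0.89, SE 0.26, adjusted p = 0.0146). Without CEM PA mock replicate 3 it was -0.65 (adjusted p = 0.0744), and the mean of the PRKAA1 probes gave -0.23 (adjusted p = 0.321). The activation loop probe read 7.92, 7.95, 7.96 and 7.79, overlapping CEM PA, and had the opposite sign (0.43, SE 0.22, adjusted p = 0.121). PRKAB1, the other beta subunit, differed by -0.06 (adjusted p = 0.787), and PRKAG1, a nucleotide-binding gamma subunit, by 0.42 (adjusted p = 0.095).

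MTOR and the stress-induced inhibitors were not called between the mock-treated lines. MTOR read 11.30, 11.12, 11.21 and 11.06 in CEM RES, overlapping CEM PA (-0.31, adjusted p = 0.141). SESN2 read 10.37, 10.53, 10.65 and 10.26, also overlapping (0.03, 95% interval -0.47 to 0.52). For DDIT4 the difference of -0.94 (SE 0.51, adjusted p = 0.145) turned on CEM PA mock replicate 2, and without it was -1.78 (adjusted p = 0.000747). All CEM RES values of DDIT4, 14.69 to 15.41 with mock, lay above that array and below the other mock arrays of CEM PA.

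Under FK866, 3 member probes of 2 genes were called as lower in CEM RES and 0 as higher, against 36% of all probes (18% in each direction). These were the TSC1 and TSC2 probes given above. The activation loop and 3′ probes of PRKAA1, at -0.61 and -0.67, had adjusted p of 0.0718 and 0.0986. With the replicate number as a random block these PRKAA1 probes were called as well (adjusted p = 0.0464 and 0.0449), which made 5 member probes. PRKAB1 was -0.50 (SE 0.18, adjusted p = 0.0528) and MTOR -0.43 (SE 0.18, adjusted p = 0.0885). PRKAB2, PRKAG1 and SESN2 differed by -0.23, 0.16 and 0.02, with adjusted p of 0.259, 0.605 and 0.955.

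The rest of the pathway was followed in 78 other AMPK and mTOR genes, of which 75 were tested, each by its brightest kept probe. FK866 in CEM PA changed 1 of them, beside 0.983% of all genes at their brightest probe, so the count is near the rate of the array. FLCN, which encodes folliculin, a regulator of RagC and RagD GTPases at the lysosome and a binding partner of AMPK through FNIP proteins, read 9.26, 9.48 and 9.89 in mock-treated CEM PA and 11.72 and 11.58 with FK866. The groups were far apart, with a log2 difference of 2.11 (SE 0.20, adjusted p = 0.00057). In CEM RES the 8 values of FLCN lay between 9.40 and 9.86 (FK866 minus mock -0.14, SE 0.16), and the difference of the responses was -2.24 (SE 0.26, adjusted p = 0.00369). This FLCN probe, A_23_P414308, is assigned to the transcript NM_144606. The 2 other kept FLCN probes differed by 0.78 and 0.09 with FK866 in CEM PA (adjusted p = 0.503 and 0.935). Averaged over its probes FLCN had a difference of 0.99 (adjusted p = 0.0525), and with only the CEM PA arrays fitted the adjusted p was 0.0863. Without CEM RES mock replicate 1, 2 of the other pathway genes were called. In CEM RES 0 of the 75 genes were called.

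Between the mock-treated lines, 37 of the 75 other pathway genes were called, 15 higher and 22 lower in CEM RES, against 47.4% of all genes at their brightest probe. The median over the 75 genes was -0.05. In the list of AMPK subunits and upstream kinases 3 of 10 were higher and 4 lower, in the mTOR complexes 4 of 9 higher and 1 lower, and in the TSC-RHEB and PI3K-AKT input 1 of 8 higher and 3 lower. Among lysosomal amino acid sensing genes 3 of 25 were higher and 5 lower, among substrates and outputs 4 of 21 higher and 7 lower, and the 2 further stress-induced inhibitors tested were both lower.

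DDIT4L, a relative of DDIT4 that also inhibits mTOR complex 1, had the largest fall in CEM RES of the named pathway genes. Its log2 signal was 12.75 ± 0.63 (SD, n = 3) in mock-treated CEM PA and 10.23 ± 0.20 (SD, n = 4) in CEM RES (-2.52, SE 0.25, adjusted p = 1.55e-05), and its second probe gave -1.88. ACACB, an acetyl-CoA carboxylase phosphorylated by AMPK, was lower by -1.97 (SE 0.31, adjusted p = 0.000293) and STRADB, a pseudokinase partner of the AMPK kinase LKB1, by -1.64 (SE 0.20, adjusted p = 5.49e-05), with -1.58 and -1.49 from their second probes. Higher in CEM RES were PRKAG3, an AMPK gamma subunit (1.79, SE 0.19, adjusted p = 2.06e-05), and LARP1, an mTOR target that binds mRNAs of the translation machinery (1.11, SE 0.23, adjusted p = 0.0018). AKT1S1, which encodes PRAS40, an inhibitory component of mTOR complex 1, was higher by 2.01 (SE 0.23, adjusted p = 3.91e-05) on its brighter probe, but its dim second probe was called in the opposite direction (-1.37, adjusted p = 0.00289).

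Under FK866, 27 of the 75 other pathway genes were called between the lines, 10 higher and 17 lower in CEM RES, beside 35.4% of all genes at their brightest probe, so the count is near the rate of the array. DDIT4L (-2.71), ACACB (-1.69) and FLCN (-2.05) were the named falls and AKT1S1 (2.00), PRKAG3 (1.25) and LARP1 (1.11) the named rises. FLCN did not differ in this way between the mock-treated lines, where it read 0.20 higher in CEM RES (SE 0.17, adjusted p = 0.367).

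**Figure D4:**
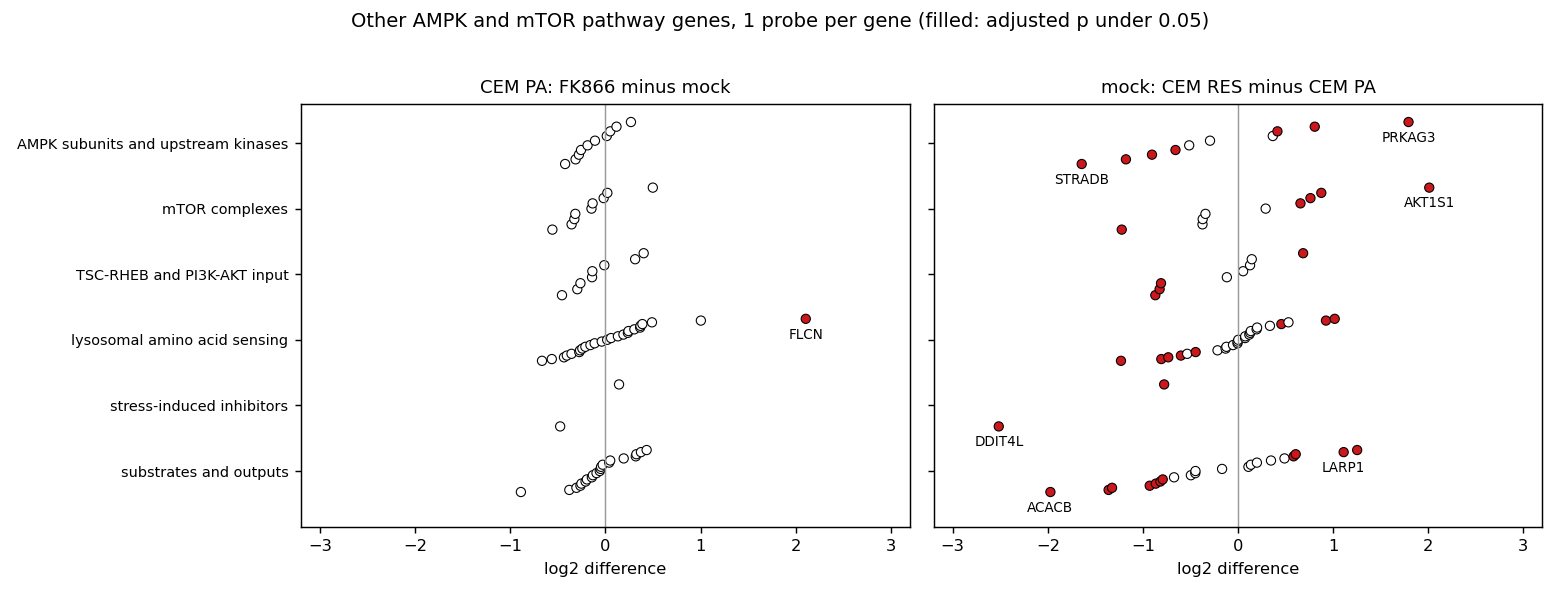
Log2 difference (x axis) of the 75 other pathway genes, 1 point per gene, by list (y axis), for FK866 minus mock in CEM PA and for mock-treated CEM RES minus CEM PA; filled points have an adjusted p under 0.05 and the genes named in the text are labelled. With FK866 in CEM PA only FLCN is filled, while between the lines 37 genes are filled on both sides of 0.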

How the data were processed

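The deposited array files hold spot intensity values written by Agilent Feature Extraction 10.7.7.1, background-corrected and detrended but not normalized between arrays. A table of log2 values, quantile normalized by the authors, was also deposited (Spearman correlation with the intensities of at least 0.999978) and served as an alternative. Intensities were log2 transformed, outlier-marked spots set to missing, control spots removed, the 13 arrays quantile normalized and the spots of a probe averaged. A probe was kept if, in 1 or more groups, every array had over 0.5 of its spots well above background. The 4 group means were fitted for each probe with limma 3.58.1 in R 4.3.3 (empirical Bayes, prior degrees of freedom 3.25, two-sided, Benjamini-Hochberg adjusted), with all 13 arrays sharing 1 estimate of the spread. On simulated data with independent noise, the fit recovered the mean size of added shifts. That simulation had no replicate, slide or session effects, so it does not test the calls under them. Correlations of replicate arrays across probes were 0.977 to 0.991. Arrays give no counts, so their number limits the precision.

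The members, the lists of other pathway genes and markers, and the rule for named genes (up to 3 genes with the largest called difference in each direction whose groups did not overlap) were chosen with earlier results of these data known. Equal replicate numbers deviated together in CEM RES (correlations 0.199, 0.388, 0.474 and 0.29), so the replicate number was also fitted as a block. In CEM PA they gave 0.46 and 0.353. The 2 FK866 arrays there mirror each other around their mean, so these values are not separate evidence of pairing. Mock replicate 3 and FK866 replicate 2, of unequal number, gave 0.259. With the block, mock replicate 3 of CEM PA has no partner and drops out of the FK866 difference and the difference of the responses. Replicate 1 of both CEM PA treatments shared a slide and scan session, so pairing and batch cannot be told apart there. Also tried were 75th percentile scaling, normexp (offset 50), other filters, 1 or averaged probes per gene, fitting the compared groups, slide or scan session as a block, quality weights, an intensity trend, and leaving out each array, with the normalization and filter kept. Leaving out an array outside the compared groups changed only the spread, not the difference. A lone array left in CEM PA with FK866 was taken to vary as the rest do. Names are those of the array design. The breast cancer line of the study was not analysed here.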

Additional observations from a re-analysis of the deposited data

Results flagged for a closer look

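The response of the FLCN probe A_23_P414308 to FK866 differed between the lines by -2.24 on the log2 scale, CEM RES minus CEM PA, by limma's test of the difference itself (SE 0.26, adjusted p = 0.00369). It was weaker when the FLCN probes were averaged (-1.02, adjusted p = 0.181). No member probe had a sample far from the others of its group by Dixon's test in the groups of 4 arrays. DDIT4 in mock-treated CEM PA, with its spread of 2.68 over 3 arrays, was not tested this way.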

How the results depend on the processing

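The 12 member differences that were called or past the double threshold in CEM PA, and those of FLCN, kept their sign under each alternative run for them. Between the mock-treated lines, averaging the probes of a gene turned the sign of the uncalled PRKAA1 probe (0.43 to -0.23) and TSC2 probe (0.50 to -0.002). Averaging replaces each probe by the mean of its gene, so it does not test a single probe. The called TSC2 probe A_23_P66110 went from -0.50 to the same -0.002 (adjusted p = 0.994), where its kept sign carries no information. With FK866 in CEM PA, the number of called member probes was 3 with normexp and with array quality weights, 2 with the replicate block, 0 with no filter on dim probes, with 1 probe per gene, with averaged probes, with the deposited log2 table and with only the compared groups, and from 0 to 2 leaving out single arrays. The share of all probes called moved too, from 1.53% to 2.55% with normexp, 6.2% with quality weights, 5.35% with the replicate block and 0.0132% with only the compared groups. The double threshold there gave 2 probes with normexp and 2 to 4 leaving out single arrays. Between the mock-treated lines averaged probes left 3 members called. Under FK866 the lines differed in 5 member probes with normexp and with the replicate block and in 7 with array quality weights, where 33.8%, 36.7% and 45.6% of all probes were called. The difference of the responses called 1 member with the replicate block (2.14% of all probes), and 0 to 1 leaving out single arrays. Of the other pathway genes, FK866 in CEM PA called 0 with averaged probes and with only the compared groups, and 1 to 2 leaving out single arrays. The replicate block changed no other of these calls of member probes. No alternative called a member with FK866 in CEM RES. The 75th percentile scaling moved the all-probe median from 0.04 to 0.17 between the mock-treated lines and from 0.06 to 0.20 under FK866. The 2 arrays of CEM PA with FK866 limit the precision of its comparisons, and signals near background limit the dim TSC1 probe.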
